A study of Mus musculus with 23 samples.

Results

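The comparison set the prefrontal cortex of older mice, at postnatal weeks 4, 5 and 10 (late), against that of younger mice, at weeks 2 and 3 (early). Its members were chosen by the age in each sample title: 13 late arrays (4 of week 4, 5 of week 5 and 4 of week 10) and 10 early arrays (6 of week 2 and 4 of week 3), which together are all 23 arrays of the series. Every array held RNA from the prefrontal cortex of 1 untreated male C57BL/6 mouse, an inbred wild-type strain, bred in the investigators' colony from timed matings and killed by cervical dislocation. The arrays were Affymetrix MOE430A chips, on which a probe set is a group of short oligonucleotides that together read 1 transcript, and the values are log2 intensities, so that 1 unit is a 2-fold difference. The labels give neither the day of weaning nor the litter of an animal, and the dissected piece is bulk tissue that holds neurons, glia, vessels and meninges. In such tissue fewer cells of a type and less RNA per cell cannot be told apart.

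Between suckling and adolescence the rodent cortex stops extending axons in bulk, its oligodendrocyte precursors mature and wrap axons with myelin, its vessels stop sprouting, and a lattice of proteoglycans settles around its neurons. Growing neurons carry their own set of tubulins, actin regulators and collapsin response mediators, which mature neurons largely give up. The suckling brain also burns ketone bodies made from the fat of milk, and it turns to glucose once milk is replaced by solid food.

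The arrays differed in ways other than age. Batch, as the titles give it, put 2 week 2 and 2 week 5 arrays in batch 2 and all others in batch 1. Scanning took 7 days, of which only scan days 4 and 7 held both stages: all 4 week 3 arrays were scanned on day 6 and all 4 week 4 arrays on day 5. Of the variance between arrays, 31.5% fell on a leading principal component. Of that component, 59.5% lay between stages and 90.8% between scan days. The median of all probe sets on an array was 6.20 ± 0.03 (SD) in the 13 late and 6.25 ± 0.01 in the 10 early arrays, a difference of -0.05 with a permutation test adjusted p of 0.00018. The signal of the 3′ actin control minus that of the 5′ one, which grows as RNA or its labelled copy shortens, was 1.67 ± 0.38 in late and 1.24 ± 0.19 in early arrays (permutation test, adjusted p = 0.00282), and it was highest at week 4 (2.07 ± 0.38, n = 4). The same difference for Gapdh was 0.21 ± 0.22 and 0.19 ± 0.08 (adjusted p = 0.861). It was highest on the 2 arrays of scan day 1, both late: week 5 batch 1 animal 2 (0.48) and week 10 animal 1 (0.75). Those 2 arrays were of a chip lot other than the common one. The mean log2 level of 20 measured markers of excitatory neurons and cortical layers lay between 8.85 and 9.13 in the early arrays and between 8.71 and 9.06 in the late ones. The mean of 9 striatal markers ran from 7.89 to 9.39 and from 6.70 to 9.31, that of 5 olfactory bulb markers from 5.22 to 5.82 and from 4.74 to 6.22, and that of 2 choroid plexus markers from 4.70 to 6.15 and from 4.63 to 5.12. Growth hormone (Gh), made in the pituitary, stood at 15.48 and prolactin (Prl) at 13.22 on the array of week 4 animal 2. Gh was also at 7.31 in week 4 animal 1, 8.93 in week 10 animal 1 and 7.14 in week 10 animal 7, and no early array exceeded 4.72. Between the stages Gh was at 2.33 ± 1.01 and did not pass (limma, adjusted p = 0.0999). The count of calls given next was 3643 without the array of week 4 animal 2.

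Of the 16103 probe sets tested, 3685 (22.9%) differed between late and early arrays by limma at an adjusted p under 0.05: 1766 were higher and 1919 lower in the late arrays. Taking for each gene the probe set with the highest mean, 1170 of 9198 genes rose (12.7%) and 982 fell (10.7%), and 7046 did not pass the test. The split between directions moved with the scaling of the arrays, since the late arrays had lower medians: after centring each array on its median 2749 probe sets were called higher and 1442 lower, and after quantile normalisation 2484 and 1683. Most changes were small. The median change of the called probe sets was 0.30 upwards and -0.41 downwards, and only 15 higher and 135 lower ones reached 2-fold. The 23 arrays separated completely for 136 probe sets (0.845%): in 84 every late array lay above every early one and in 52 below. By gene these were 63 above (0.685%) and 26 below (0.283%), together 89 (0.968%). Replacing batch by scan day gave 2407 calls where scan day was random and 1587 where it was fixed. Of these, 2271 and 1184 were shared with the 3685. The fixed setting draws the change from scan days 4 and 7 alone, which hold week 2, 5 and 10 arrays. Without the 7 arrays of scan days 6 and 7 there were 2172 calls, 1565 of them shared.

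**Figure D1:**
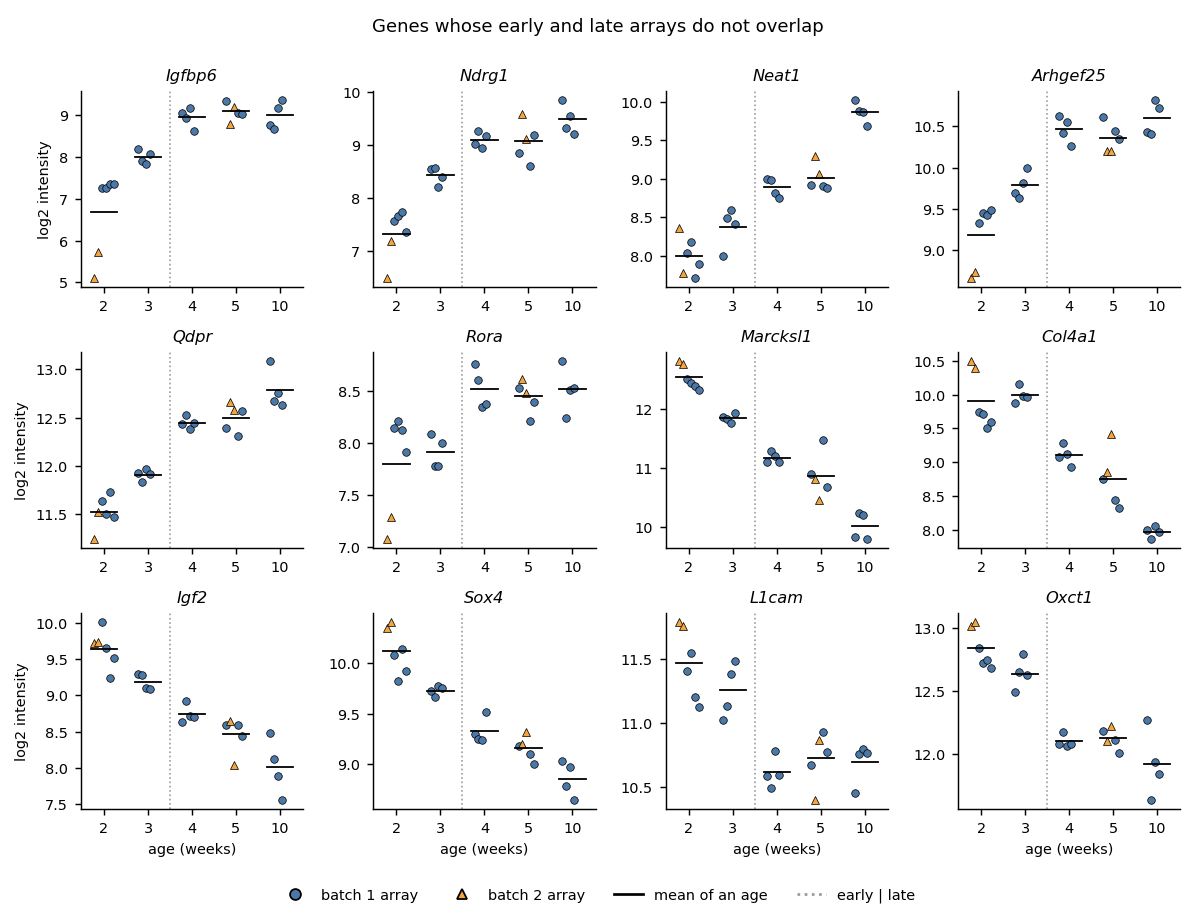
Log2 intensity (y axis) of 12 genes on each of the 23 arrays against age in weeks (x axis); circles are batch 1 and triangles batch 2 arrays, bars the means of an age, and the dotted line parts early from late. Igfbp6, Ndrg1, Neat1, Arhgef25, Qdpr and Rora lie higher on every late array than on any early one, and Marcksl1, Col4a1, Igf2, Sox4, L1cam and Oxct1 lower.

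The steps between ages were described for the called probe sets, whose selection by stage favours a step between weeks 3 and 4. The median of those that rose, relative to week 2, was 0.02 at week 3, 0.30 at week 4, 0.29 at week 5 and 0.32 at week 10. Of the 1766, 1748 moved upwards from week 3 to week 4, whereas 948 did so from week 2 to 3, 876 from week 4 to 5 and 1088 from week 5 to 10. For 1299 of them (73.6%) the step from week 3 to 4 was the largest of the 4 steps, as it was, in the direction of its own change, for 37.4% of the 12418 probe sets not called. The 1919 probe sets that fell were at -0.06, -0.36, -0.40 and -0.43 at the same ages. Of these, 1719 moved downwards from week 3 to 4, and for 962 that step was the largest, while for 545 the step from week 2 to 3 was. A further F-test asked whether ages differed inside a stage (week 2 from 3, or weeks 4, 5 and 10 from each other), and it called 2077 of all probe sets (12.9%). It called 109 of the 1766 that rose (6.17%) and 668 of the 1919 that fell (34.8%). This F-test had no term for scan day. In 364 of the 1919, each array of scan days 6 and 7 lay above all others, as given further on. Week 3 shared no scan day with week 2 or week 4, so neither step can be told apart from the change of scan day. The actin difference was also highest at week 4, and its part in the step from week 3 to 4 was not tested by age. After adjusting for it, 939 probe sets were called higher and 1767 lower between the stages.

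**Figure D2:**
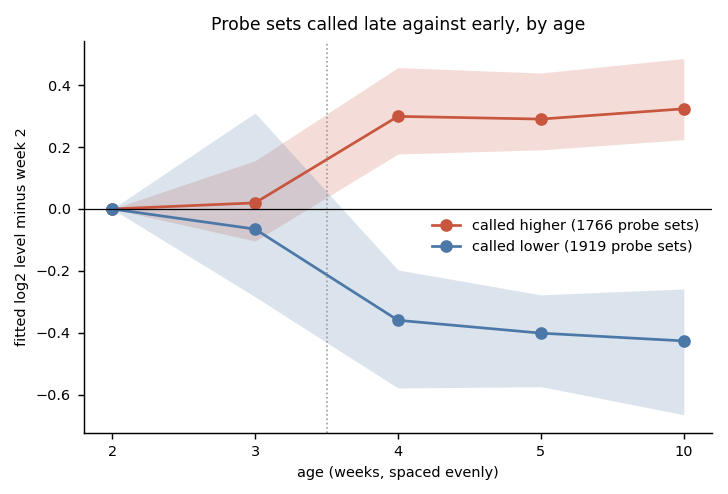
Fitted log2 level minus that of week 2 (y axis) against age in weeks, spaced evenly (x axis), for the probe sets called higher and lower in late arrays; points are medians and shaded bands run from the lower to the upper quartile. The medians of the called higher set are 0.02 at week 3 and 0.30 at week 4, and those of the called lower set -0.06 and -0.36.

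Among genes whose arrays separated completely, the largest rise was that of Igfbp6, a secreted binding protein with a preference for insulin-like growth factor 2. Its lowest, median and highest log2 levels were 5.11, 7.34 and 8.17 in early arrays and 8.62, 9.05 and 9.35 in late ones. The early values spread widely, with the 2 batch 2 arrays of week 2 at the bottom. The fitted change was 1.75 ± 0.21 (SE), or 3.37-fold (limma, adjusted p = 8.01e-06). Ndrg1, a cytosolic protein abundant in myelinating glia, ran from 6.49 through a median of 7.69 to 8.56 in early arrays and from 8.61 through 9.19 to 9.84 in late arrays. The gap between the stages was narrow, and all 4 other Ndrg1 probe sets also rose. Its change was 1.41 ± 0.19 (limma, adjusted p = 1.92e-05).

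Neat1, the long noncoding RNA around which nuclear paraspeckles form, spanned 7.71 to 8.599 with a median of 8.11 in early arrays and 8.74 to 10.02 with a median of 8.999 in late arrays. The 4 week 10 arrays stood apart from the other late ones. Its mean was 8.89 at week 4, 9.01 at week 5 and 9.86 at week 10, and the step from week 5 to 10 was 0.92 (limma, adjusted p = 0.0057), beside an overall change of 1.09 ± 0.16 (adjusted p = 6.61e-05). Arhgef25 ran from 8.66 to 9.99 (median 9.46) and from 10.20 to 10.82 (median 10.44). Qdpr, the reductase that recycles the tetrahydrobiopterin needed to make monoamines, ran from 11.24 to 11.97 (median 11.68) and from 12.30 to 13.09 (median 12.56). In both genes the gap was wider than in Ndrg1, and a second Qdpr probe set separated the stages too. Arhgef25 changed by 1.02 ± 0.09 (adjusted p = 1.79e-07) and Qdpr by 0.89 ± 0.09 (adjusted p = 7.65e-07) in limma.

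The other 10 of the 15 largest separated rises were between 0.71 and 0.88. They included Resp18, a secretory pathway protein of endocrine and neuronal cells (0.88 ± 0.10), Rida, which deaminates reactive enamines and imines (0.85 ± 0.12), and Gstm1, a glutathione transferase (0.80 ± 0.11). Prxl2b, a thioredoxin-fold protein (0.78 ± 0.07), Tnk2, a non-receptor tyrosine kinase (0.78 ± 0.09), and Dkk3, a secreted member of the Dickkopf family (0.77 ± 0.11), rose as well. Upf2, a core factor of nonsense-mediated decay, rose by 0.73 ± 0.10, Ccdc28a by 0.72 ± 0.08 and Nptx1, a pentraxin that gathers AMPA receptors at synapses, by 0.71 ± 0.09. Aktip, a partner of the kinase AKT, rose by 0.84 ± 0.09, with 0.37 ± 0.07 in a second probe set and 0.07 ± 0.07 (adjusted p = 0.538) in another near background. Adjusted p-values of these 10 lay between 1.83e-07 (Prxl2b) and 3.42e-05 (Rida).

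Among the separated falls the largest was that of Marcksl1, an actin-binding kinase substrate enriched in growing neurites. Its lowest, median and highest levels were 11.76, 12.35 and 12.82 in early arrays and 9.80, 10.82 and 11.48 in late arrays. Mean levels at each age lay below that of the age before, from 12.54 at week 2 through 11.85, 11.18 and 10.87 to 10.02 at week 10. The change was -1.55 ± 0.19, 2.93-fold lower (limma, adjusted p = 1.02e-05), and its 3 other probe sets also fell. Col4a1, the collagen of vascular basement membranes, ran from 9.51 to 10.50 (median 9.92) in early and from 7.86 to 9.42 (median 8.75) in late arrays. It was level between weeks 2 and 3 (means 9.91 and 10.00) and then stood at 9.10, 8.76 and 7.97. Its change was -1.29 ± 0.16 (adjusted p = 8.99e-06).

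Igf2, a growth factor made by meninges, choroid plexus and vessels, ran from 9.09 to 10.01 (median 9.402) in early and from 7.56 to 8.92 (median 8.59) in late arrays and fell by 1.05 on the log2 scale (SE 0.14, limma adjusted p = 2.87e-05). Sparc, a secreted collagen-binding protein of astrocytes and vessels, had lowest and highest levels of 11.31 and 12.02 in early and 9.76 and 11.27 in late arrays. Eln, elastin, had 8.43 and 9.12 against 7.12 and 8.29. The margins were thus small for Igf2, Sparc and Eln against the spread inside the late group. Sparc changed by -1.02 ± 0.16 and Eln by -0.99 ± 0.13. Sox4, a transcription factor of newly formed neurons and glia, ran from 9.66 to 10.41 (median 9.87) and from 8.65 to 9.52 (median 9.18) and changed by -0.83 ± 0.09 (adjusted p = 1.56e-06). Of its 6 probe sets 5 fell and the dimmest did not pass (-0.10 ± 0.07).

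The remaining separated falls among the 15 largest included Ybx1, a cold-shock RNA-binding protein (-0.98 ± 0.12, with 0.05 ± 0.10 in a second probe set near background), and Kctd5, an adaptor of cullin ubiquitin ligases (-0.87 ± 0.11). Sirt2, a tubulin deacetylase of oligodendrocytes, changed by -0.82 ± 0.09, Pard6g, a cell polarity protein, by -0.82 ± 0.11, and Tmem163, a zinc-binding vesicle protein, by -0.75 ± 0.11. Tubb3, the neuronal class III tubulin, changed by -0.72 ± 0.09, Rhbdl1, a rhomboid family protease, by -0.71 ± 0.11, and Slc7a5, the transporter that brings large neutral amino acids into the brain, by -0.69 ± 0.12. Adjusted p-values of these 8 lay between 3.06e-06 (Sirt2) and 0.000238 (Slc7a5). All 37 genes chosen for the size or the abruptness of their change kept their call and direction under every alternative fitted except batch 2 alone, which had 4 arrays and called no probe set. They were chosen for a call and complete separation on these same arrays, which favours keeping the call.

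A second choice, by abruptness, took the genes for which the gap between the lowest late and the highest early age mean (or the reverse) was the largest share of the whole range of age means, with these means fitted with batch as a term. The age means printed here are plain means. Rora, a nuclear receptor that drives clock gene transcription, had age means of 7.79 and 7.91 in early and 8.52, 8.45 and 8.52 in late arrays. The gap was 84.8% of the range, and the step from week 3 to 4 was 0.61 (limma, adjusted p = 0.029). Its early values were pulled down by the 2 batch 2 arrays of week 2, and without scan days 6 and 7 the change of 0.64 ± 0.10 was 0.38. Sec11c, a signal peptidase subunit, stood at 9.66 and 9.73 and then at 10.31, 10.16 and 10.31, with a gap share of 74.97%. Medag, named for a part in fat cell formation, stood at 6.23 and 6.37 and then at 6.94, 7.05 and 6.98, with a gap share of 67.4%. Lpgat1, an acyltransferase of phospholipids, had a gap share of 67.3% in its chosen probe set (0.58 ± 0.06), but 2 of its other probe sets were at -0.83 and -0.52 and did not pass.

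Of the abrupt falls, L1cam, the adhesion molecule of growing axons, stood at 11.47 and 11.26 in early and 10.61, 10.73 and 10.69 in late arrays, with a gap share of 70.2%. Its lowest, median and highest levels were 11.02, 11.39 and 11.79 against 10.40, 10.76 and 10.93, so that the stages did not overlap, and it changed by -0.69 ± 0.08 (limma, adjusted p = 6.57e-06). Oxct1, the mitochondrial transferase that activates ketone bodies for burning, had 12.49, 12.73 and 13.05 against 11.64, 12.08 and 12.27. Its age means were 12.84 and 12.64 and then 12.10, 12.13 and 11.92, and it changed by -0.69 ± 0.06 (adjusted p = 2.55e-07). The other abrupt falls were those of Pard6g (68.7%), Pabpc1, the cytoplasmic poly(A)-binding protein (53.6%), Tubb3 (51.8%) and Ybx1 (43.8%). Pabpc1 changed by -0.60 ± 0.06, and its second probe set, near background, by 0.13 ± 0.07 (adjusted p = 0.216). Small differences between ages inside a stage are part of how these genes were chosen.

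The 150 bases before the annotated start of 2 abrupt risers and 2 abrupt fallers are shown because these genes changed level at the same boundary in opposite directions. They were taken from RefSeq's annotation of GRCm38.p6, are written 5′ to 3′ on the strand of the gene, and carry in capitals the only matches to the 4 motifs searched. The choice passed over genes of a single chromosome and genes without a window. Sec11c, with a larger gap share than Medag, was not printed. The windows are chr9:68653636-68653785 (plus strand) for Rora, chr5:149411599-149411748 (plus) for Medag, chrX:73880791-73880940 (minus) for L1cam and chr15:4026278-4026427 (plus) for Oxct1.
Rora: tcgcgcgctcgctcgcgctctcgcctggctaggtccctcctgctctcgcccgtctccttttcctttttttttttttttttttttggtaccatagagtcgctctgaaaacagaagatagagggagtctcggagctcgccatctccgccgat
Medag: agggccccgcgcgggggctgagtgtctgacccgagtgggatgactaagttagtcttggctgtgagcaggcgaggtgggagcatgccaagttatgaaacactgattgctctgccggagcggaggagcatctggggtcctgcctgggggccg
L1cam: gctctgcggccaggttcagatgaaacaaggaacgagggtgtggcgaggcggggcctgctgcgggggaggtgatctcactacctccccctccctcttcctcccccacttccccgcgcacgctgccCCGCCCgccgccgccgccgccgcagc
Oxct1: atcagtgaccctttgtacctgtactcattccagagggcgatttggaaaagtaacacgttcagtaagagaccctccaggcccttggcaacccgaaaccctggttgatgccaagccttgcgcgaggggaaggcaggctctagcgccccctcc
A GC box (GGGCGG, here CCGCCC on the gene's strand) begins 26 bases before the start of L1cam, and the other windows printed hold no match. Over 300-base windows around the starts (250 before, 50 after), read on both strands, the GC box occurred in 35.9% of all 27025 promoters, in 66.5% of the 942 matched genes that rose, in 69.7% of the 781 that fell and in 63.7% of the 5702 that were tested and not called. The CCAAT box (CCAAT) occurred in 38.4%, 35.2% and 38.2% of those groups, the E-box CACGTG in 10.6%, 10.2% and 10.2%, and the cyclic AMP response element TGACGTCA in 2.23%, 2.82% and 3.44%. None of the 4 motifs contains another, and a match is a run of letters in the window and no evidence of binding.

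Gene lists were read by how many of their measured members passed, beside the 12.7% of all genes that rose and the 10.7% that fell. The list of immature neurons and neurite growth fell almost throughout: 28 of its 36 members fell, none rose, and its median change was -0.46, against 0.02 over all genes. After Marcksl1 the largest falls were those of Cd24a, a surface glycoprotein of young neurons (8.81 to 10.66, median 10.03, in early and 6.86 to 9.66, median 8.01, in late arrays, overlapping; -1.73 ± 0.30, adjusted p = 0.000312), and the collapsin response mediators Dpysl3 (-1.30 ± 0.26) and Dpysl5 (-1.28 ± 0.22), which steer growth cones. The microtubule-binding Dcx (-0.75 ± 0.22), the growth cone protein Gap43 (-0.46 ± 0.10) and the transcription factor Sox11 (-1.06) fell too. Among the 8 that did not pass, Map1b changed by 0.00 ± 0.27 and Stmn4 by 0.39. The summed level of the list, as a mean of its members, lay between 10.78 and 11.44 in early and between 10.34 and 10.84 in late arrays, and 24 members also differed between ages inside a stage. Without scan days 6 and 7, 23 members fell, and without week 2, 10 fell and 1 rose.

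**Figure D3:**
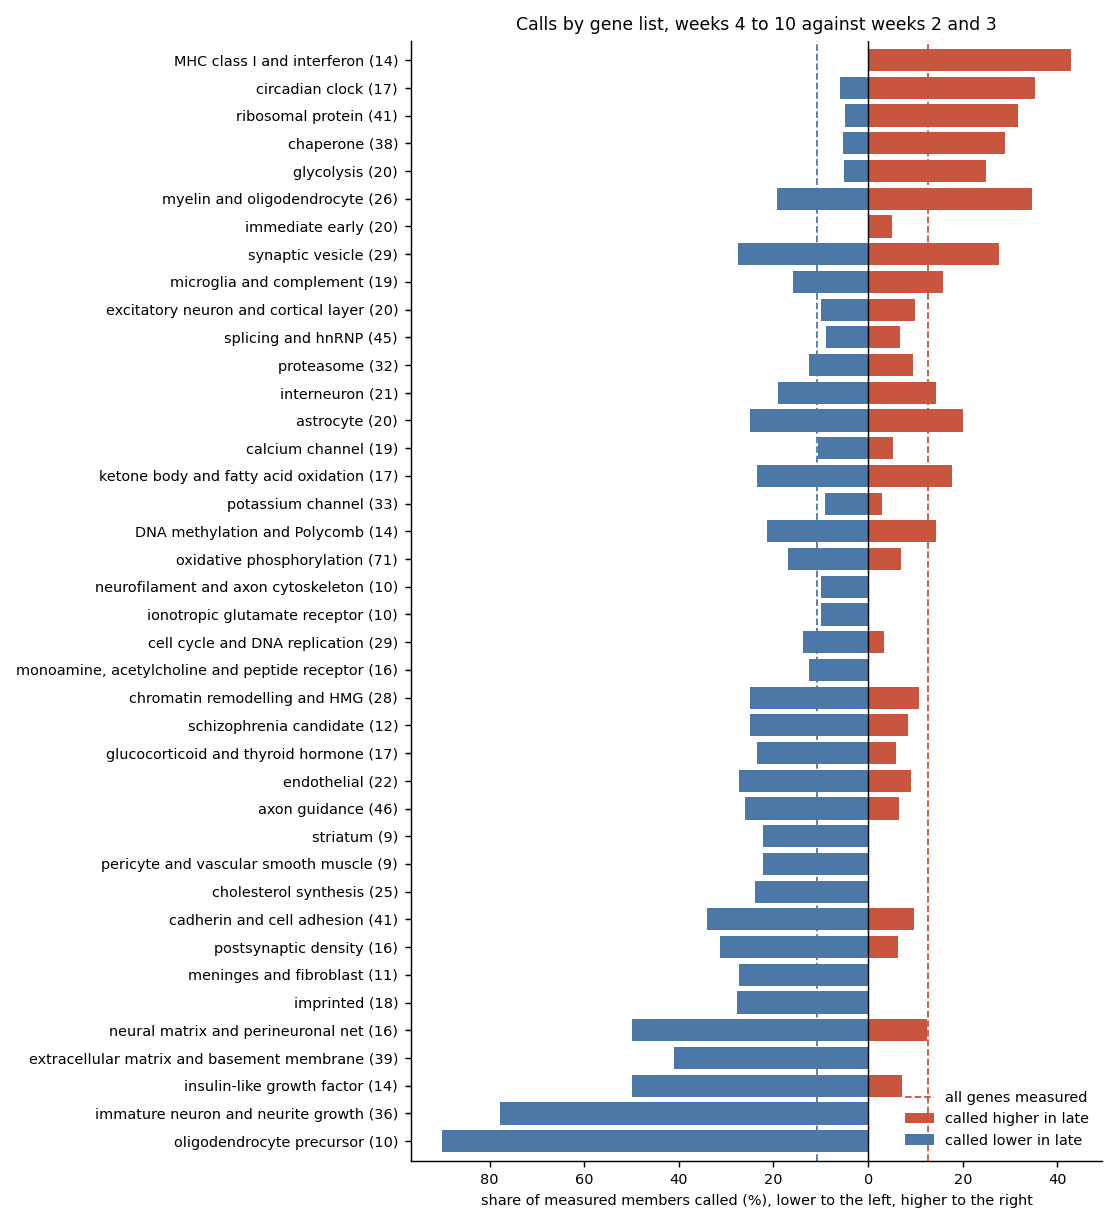
Share of the measured members (x axis, percent) of each gene list with at least 9 of them (y axis, number in brackets) that were called higher (right) or lower (left) in late than in early arrays; dashed lines give the shares over all genes, 12.7% and 10.7%. Oligodendrocyte precursor and immature neuron genes reach furthest left, and MHC class I and interferon and clock genes furthest right.

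Markers of oligodendrocyte precursors fell in 9 of 10 members, with a median change of -0.53. The proteoglycan Vcan (5.95 to 7.50 in early, 5.29 to 6.96 in late arrays, overlapping) changed by -0.94 ± 0.21, the lineage factor Olig2 by -0.85 ± 0.15, the proteoglycan Cspg4 by -0.66 ± 0.16, and Pdgfra, the receptor that keeps precursors dividing, by -0.39. Sox6 (-0.24) did not pass, and Cspg4 was not called without scan days 6 and 7 (-0.09). The list of myelin and mature oligodendrocytes was split, with 9 of 26 members up, 5 down and a median of -0.01. Ndrg1 and Qdpr led the rises, with Aspa, which frees acetate from N-acetylaspartate for myelin lipid (5.08 to 7.15 in early, 6.64 to 7.86 in late arrays; 1.07 ± 0.19, adjusted p = 0.00036), and Plekhb1 (1.01 ± 0.18). The falls were led by Ugt8a, which makes the galactolipid of myelin (-1.11 ± 0.22, but 0.07 within batch 2), and by the protease Adamts4 (-0.83 ± 0.12) and Sirt2. The structural genes Mbp (-0.11 ± 0.08), Mog (-0.18 ± 0.26) and Cnp (-0.30 ± 0.14) did not pass. The median change of this list was -0.14 within batch 1 and 0.93 within batch 2, and under quantile normalisation it was 0.07.

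Extracellular matrix fell without a rise: 16 of 39 genes of basement membrane and interstitial matrix were lower and none higher, with a median of -0.23. Col3a1, a fibrillar collagen, ran from 7.53 to 9.01 (median 8.28) in early and from 4.85 to 7.65 (median 6.53) in late arrays, which overlapped slightly, and changed by -1.98 ± 0.30 (adjusted p = 8.04e-05). Npnt, a ligand of integrins (-1.36 ± 0.25), the basement membrane linker Nid1 (-1.35 ± 0.24), Col4a1, Sparc, Fn1 (-0.65 ± 0.12) and the collagen chaperone Serpinh1 (-0.72) fell as well. In the neural matrix, 8 of 16 genes fell and 2 rose. The lecticans Bcan (-0.59 ± 0.10) and Ncan (-0.44) fell with Vcan, while Hapln2, the link protein of the nodes of Ranvier, rose (0.65 ± 0.14). Vessel markers moved with these genes: 6 of 22 endothelial markers fell and 2 rose. The falls were led by Cd93 (-1.14 ± 0.26), Slc16a1 (-1.12 ± 0.16), also counted below with the ketone body genes, and Vwf (-0.70 ± 0.11). Of 9 pericyte markers 2 fell, Notch3 (-0.50 ± 0.12) and Rgs5 (-0.37 ± 0.09). Dimmer Rgs5 probe sets were called lower at -1.25 and -1.13, and another, at -0.30, did not pass. Of 11 meningeal markers 3 fell, Igf2, Dcn (-0.57 ± 0.16) and Col1a1 (-0.31 ± 0.10). A second Col1a1 probe set fell by more (-1.38 ± 0.29). The endothelial list mean lay between 7.29 and 7.63 in early and 6.99 and 7.51 in late arrays and the meningeal one between 7.16 and 7.69 and between 6.63 and 7.51. Their part in the fall of the matrix genes was not tested, and Notch3 (-0.37) and Col1a1 (-0.38) were not called without scan days 6 and 7.

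Growth factor genes of the insulin-like family fell in 7 of 14 cases and rose in 1, Igfbp6. Besides Igf2, the ligand Igf1 had levels of 6.64 to 7.94 (median 7.27) in early and 5.97 to 7.07 (median 6.56) in late arrays and changed by -0.79 ± 0.15 (adjusted p = 0.000682). The scavenging receptor Igf2r (-0.36 ± 0.12), the binding proteins Igfbp3 (-0.60 ± 0.16) and Igfbp7 (-0.46) and the signal adaptors Irs1 (-0.37) and Irs2 (-0.38) fell with it, and the receptor Igf1r (-0.28) did not pass. Igf2r was not called without scan days 6 and 7 (-0.10). Of 18 imprinted genes 5 fell and none rose. Mkrn3, a repressor of puberty in the hypothalamus, ran from 3.18 to 6.17 in early arrays and from 3.00 to 3.22 in late ones, which is near background, and changed by -1.45 ± 0.30, and Nnat changed by -0.81 ± 0.17.

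Adhesion and guidance genes leaned downwards. Of 41 cadherins and other adhesion molecules 14 fell and 4 rose, and of 46 axon guidance genes 12 fell and 3 rose. Cxadr, an adhesion protein of growing neurites, had 6.60 to 9.41 (median 7.75) in early and 5.62 to 7.66 (median 6.29) in late arrays and changed by -1.38 ± 0.27 (adjusted p = 0.000877). Nectin3 (-0.80 ± 0.16), L1cam, Cntn1 (-0.66 ± 0.13), and the receptors Epha3 (-0.65 ± 0.13), Epha4 (-0.63 ± 0.13) and Robo1 (-0.54 ± 0.14) fell. A second Cntn1 probe set did not pass (-0.13 ± 0.08). Without scan days 6 and 7, 8 adhesion genes and 3 guidance genes were called lower and 0 and 1 higher, and Nectin3 (-0.57), Cntn1 (-0.39), Epha3 (-0.27) and Epha4 (-0.39) lost their calls.

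Synaptic genes did not move one way. Of 29 synaptic vesicle genes 8 rose and 8 fell, with a median of -0.05. Pclo, a scaffold of the active zone, separated the stages (9.99 to 11.001, median 10.81, against 11.02 to 11.78, median 11.38) and rose by 0.63 ± 0.09 (adjusted p = 5.03e-05), but its dimmer second probe set was called lower (-0.85 ± 0.17, adjusted p = 0.00108), so that the direction for Pclo depends on the probe set. The vesicle SNARE Vamp1 rose by 0.58 ± 0.10 and its partner Snap25 by 0.40, whereas Syn2, which tethers vesicles, changed by -0.59 ± 0.12 and the vesicle glycoprotein Sv2a by -0.50 ± 0.12. Syn2 (-0.41) and Sv2a (-0.15) lost their calls without scan days 6 and 7. Of 16 postsynaptic density genes 5 fell and 1, Camk2g (0.25), rose. Dlg4, the scaffold PSD-95, ran from 9.21 to 10.08 (median 9.62) in early and from 6.85 to 10.73 (median 8.61) in late arrays, so that the late arrays spanned the early ones entirely. It changed by -0.94 ± 0.22 (adjusted p = 0.00338), with -1.14 within batch 1 and -0.01 within batch 2, and its second probe set did not pass (-0.36 ± 0.14). Camk2a (-0.90 ± 0.49) did not pass.

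Receptors of the fast transmitters passed rarely: 1 of 10 ionotropic glutamate receptor genes, Grik5 (-0.64 ± 0.19), and none of 7 GABA receptor genes. Grin2b (0.06 ± 0.22) and Gria2 (-0.18 ± 0.08) did not pass. Among 4 sodium channel genes Scn1a, the channel on which fast-spiking interneurons rely, rose by 0.42 ± 0.08 (9.46 to 10.26 in early, 10.19 to 10.68 in late arrays, adjusted p = 0.000649), while its second probe set was called lower (-0.75 ± 0.26, adjusted p = 0.0358), and Scn2a fell by 0.75 on the log2 scale (SE 0.22), a value that turns with scan day as given further on. Among 33 potassium channel genes 1 rose, the channel subunit Kcnab2 (0.45 ± 0.08), and 3 fell, with Kcnip1 at -0.56 ± 0.07. A dimmer Kcnab2 probe set did not pass (-0.02 ± 0.35). Of 19 calcium channel genes Ryr2, the release channel of the endoplasmic reticulum, separated the stages (9.59 to 10.09 against 10.17 to 10.88) and rose by 0.62 ± 0.09, and 2 fell, Cacna1b (-0.89 ± 0.17) and Cacna1c (-0.22 ± 0.07). Grik5 (-0.48), Cacna1b (-0.48) and Cacna1c (-0.21) lost their calls without scan days 6 and 7. Slc12a5, the chloride extruder that makes GABA inhibitory, ran from 12.17 to 12.66 (median 12.50) and from 12.58 to 12.81 (median 12.66) and rose by 0.19 ± 0.05 (adjusted p = 0.00402). Its dimmer second probe set was at -0.38 ± 0.36 and did not pass.

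Of 21 interneuron markers 3 rose and 4 fell, and the share that rose was near the 12.7% of all genes. Pvalb, the calcium buffer of fast-spiking cells, ran from 5.56 to 8.63 (median 7.79) in early and from 8.34 to 9.18 (median 8.73) in late arrays. Its age means were 7.10, 8.41, 8.89, 8.73 and 8.61, so that the largest step lay between weeks 2 and 3, and without week 2 the change of 1.08 ± 0.23 (adjusted p = 0.00147) was 0.31 (adjusted p = 0.16). Vip rose by 0.48 ± 0.12 and Calb1 by 0.23, while Calb2 (-0.81 ± 0.21), Nos1 (-0.67 ± 0.20), Dlx1 (-0.38) and Reln (-0.36) fell. Vip (0.40) and Nos1 (-0.12) lost their calls without scan days 6 and 7, and Nos1 stood at 0.08 with scan day held fixed. Sst (0.06 ± 0.05), Gad1 (0.31 ± 0.11, adjusted p = 0.0514) and Gad2 (-0.67 ± 0.25, adjusted p = 0.0558) did not pass.

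Astrocyte markers were mixed, 4 of 20 up and 5 down. Fabp7, the fatty acid binding protein of radial glia and young astrocytes, changed by -0.89 ± 0.20 and Gfap by -0.64 ± 0.16. Clu, the secreted chaperone clusterin, rose by 0.45 ± 0.10 and S100b by 0.42, and Aqp4 (-0.08 ± 0.08) did not pass. Of 19 microglia and complement genes 3 rose and 3 fell, with a median of 0.06, so that 31.6% passed beside 23.4% of all genes. Cx3cr1 (-0.61 ± 0.15), P2ry12 (-0.50 ± 0.12) and Tmem119 (-0.44 ± 0.15) fell. The protease Ctss (0.35 ± 0.09) and the complement subunit C1qb (0.32) were among those that rose. A second Cx3cr1 probe set did not pass (-0.26 ± 0.10). Within batch 2 Tmem119 stood at 0.16, and without scan days 6 and 7 Cx3cr1 was at -0.13 (adjusted p = 0.57).

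Of 17 measured genes of ketone body and fatty acid oxidation 3 rose and 4 fell, with a median of 0.02, and these shares were not tested against those of all genes. Slc16a1, the transporter that carries ketone bodies and lactate across the blood-brain barrier, had 10.03 to 11.41 (median 11.28) in early and 9.35 to 10.24 (median 9.86) in late arrays, and only the edges overlapped. It changed by -1.12 ± 0.16 (adjusted p = 5.38e-05). Bdh1, which oxidises hydroxybutyrate, changed by -0.69 ± 0.11, Oxct1 by -0.69 ± 0.06 and Acat1, which splits acetoacetyl-CoA, by -0.33. The 3 that rose were Pdk4 (0.52 ± 0.13, but 0.34 and not called without scan days 6 and 7) and Pdk2 (0.36), kinases that restrain pyruvate dehydrogenase, and Hadhb (0.45), of fatty acid oxidation. Slc16a1, Bdh1 and Oxct1 kept their calls without week 2, without week 3 and with scan day held fixed, where the change rests on scan days 4 and 7. Acat1 was not refitted alone under these settings. Of 20 glycolytic genes 5 rose, Tpi1 with separated stages (12.28 to 12.84 against 12.86 to 13.13, 0.33 ± 0.05), Aldoa (not called without scan days 6 and 7, 0.22) and Aldoc by 0.26 ± 0.06 each, Pkm by 0.26 and Ldhb by 0.18, and the neuronal glucose transporter Slc2a3 fell (-0.36 ± 0.06). A dimmer Aldoc probe set did not pass (-0.17 ± 0.07). Among 71 genes of oxidative phosphorylation 5 rose and 12 fell, a median of -0.01, and after median centring 12 rose and 4 fell. Of 25 genes of cholesterol synthesis and transport 6 fell and none rose, among them Abca1, the exporter of cholesterol (8.33 to 8.596 against 7.75 to 8.24, separated, -0.49 ± 0.07), Dhcr7 (-0.41 ± 0.09) and Sqle (-0.39 ± 0.10).

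Clock genes rose in 6 of 17 cases and fell in 1. The repressor Bhlhe40 (8.59 to 9.47, median 9.12, against 9.36 to 10.57, median 9.71) changed by 0.75 ± 0.14 (adjusted p = 0.000637), Rora by 0.64 ± 0.10, the output factor Dbp by 0.55 ± 0.20, Arntl by 0.47, Nr1d2 by 0.30 and Npas2 by 0.25, and the kinase Csnk1e by -0.62 ± 0.12. Per1 (-0.04), Per2 (0.04) and Clock (-0.07) did not pass. The labels give no hour of killing. Without scan days 6 and 7, 3 of these genes were called higher and 1 lower, and Bhlhe40 (0.49) and Dbp (0.69) were not called.

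Genes of antigen presentation and interferon rose in 6 of 14 cases and fell in none, with a median of 0.24. Il33, a nuclear alarmin of oligodendrocytes and astrocytes, ran from 5.22 to 6.14 (median 5.81) in early and from 5.98 to 8.06 (median 6.43) in late arrays. Its age means were 5.64, 5.93, 6.37, 6.34 and 7.90, and the step from week 5 to 10 was 1.61 (adjusted p = 0.00014), beside a late change of 1.07 ± 0.25 (adjusted p = 0.00317). Ifit3 (0.65 ± 0.15), B2m, the light chain of MHC class I (0.32 ± 0.07), the immunoproteasome subunit Psmb10 (0.30 ± 0.07), H2-D1 (0.25) and Tapbp (0.23) rose too. Without scan days 6 and 7, 3 of the 6 were called, and Il33 (1.21, adjusted p = 0.0512), B2m (0.30) and Psmb10 (0.28) were not.

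Members of 2 housekeeping lists rose by small amounts in their brightest probe sets. Of 41 ribosomal protein genes 13 rose, among them Rpl37 (0.43 ± 0.07) and Rps25 (0.38 ± 0.09), and 2 fell, Rplp0 (-0.48 ± 0.09) and Rps2 (-0.29 ± 0.06). Of 38 chaperones 11 rose, led by Hspa1b (0.46 ± 0.11), and 2 fell. The dimmer Hspa1b probe sets rose by more (1.10 ± 0.22 and 0.94 ± 0.19). Without scan days 6 and 7, 1 ribosomal protein gene and 2 chaperones were called higher, and after adjusting for the actin difference 4 and 2.

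Of 14 genes of DNA methylation and Polycomb 2 rose and 3 fell, with a median of -0.03, and the share that rose was near that of all genes. Dnmt3a, a de novo DNA methyltransferase that deposits neuronal methylation after birth, ran from 9.26 to 10.53 (median 10.11) in early and from 7.70 to 9.27 (median 8.67) in late arrays, overlapping at the edge. It changed by -1.29 ± 0.16 (adjusted p = 1.31e-05), fell with age from 10.27 at week 2 to 8.17 at week 10, and all 4 of its other probe sets fell, 1 of them at -2.70. Ezh1, the Polycomb methyltransferase of non-dividing cells, rose by 0.59 ± 0.10, Mbd2 rose by 0.29 ± 0.07, and Jarid2 (-0.51 ± 0.13) and Mbd1 (-0.29) fell with it, while Ezh2 (-0.29) and Dnmt1 (-0.06) did not pass. Mbd2 (0.24) and Jarid2 (-0.12) lost their calls without scan days 6 and 7. Of 29 cell cycle genes 4 fell and 1 rose, Rrm2, the ribonucleotide reductase subunit of dividing cells, by most (4.94 to 6.83 against 4.16 to 6.05, -1.04 ± 0.24). Cdk4, at -0.23 ± 0.08, stood at 0.0075 without week 2.

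A set of the called falls stood high on the arrays of 2 scan days. In 364 of the 1919 probe sets called lower (18.97%), each of the 7 arrays of scan days 6 and 7 lay above all 16 others, and this held for 153 of the 12418 not called (1.23%). Those 7 arrays comprise the whole of week 3 (4 arrays), both batch 2 animals of week 2 and 1 late animal, of week 5. Among the 135 probe sets lower by at least 2-fold, 73 had this pattern. These scan days were singled out after the values had been seen. All but 1 of the 7 arrays are early, so the pattern itself favours a call lower, and the shares are no independent comparison. In the other direction, the 7 arrays lay below all 16 others in 25 of the 1766 called higher (1.42%) and 30 of those not called (0.24%).

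Rbfox2, a neuronal splicing factor, stood between 9.99 and 10.33 on the 7 arrays and at 8.49 or less on the other 16. Its age means were 8.74, 10.16, 7.36, 8.26 and 8.11, and its called change of -1.32 ± 0.36 (adjusted p = 0.00995) was -0.22 without these arrays and 0.39 with scan day held fixed. Values with scan day fixed rest on scan days 4 and 7, which hold week 2, 5 and 10 arrays and none of week 3 or 4. Its 3 other probe sets did not pass and lay between -0.15 and 0.16. The potassium channel Kcnh1 (-1.005 ± 0.32) stood at 8.54 to 9.28 on the 7 arrays and at most at 7.50 on the others, and its change was -0.13 without them and 0.40 with scan day fixed. Scn2a, the sodium channel of excitatory axons, stood at 11.52 to 11.98 and at most 10.66, and its change was -0.05 and 0.12. The second Scn2a probe set did not pass (-0.05 ± 0.17). Gsk3b, a kinase of Wnt and insulin signalling, stood at 8.46 to 8.90 and at most 8.22, and was lowest at week 4 (6.36 ± 0.44, SD, n = 4). Its change of -1.02 ± 0.26 was -0.58 without those arrays (adjusted p = 0.29).

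The same arrays were high for Nos1, Cntn1, Epha4, Cspg4, Adamts4, Sv2a, Homer2, Cacna1b, Slc4a4, Jarid2, Pde10a, Kcnma1, Smarcc1, Satb1, Bace1 and Plxna2 among the genes named as lower. Of these, Adamts4 (-0.71) and Bace1 (-0.31) kept the call without the 7 arrays, and the other 14 lost it. When scan day was held fixed, Pde10a stood at 0.02, Kcnma1 at 0.16, Smarcc1 at 0.09, Satb1 at 0.03 and Homer1 at 0.05. In the main fit the other Satb1 probe sets did not pass (0.06 ± 0.10 and 0.10 ± 0.10). Among genes not called between the stages, Kcnc1, a fast potassium channel, showed the pattern as well: its age means were 7.04, 9.22, 6.62, 7.47 and 7.02, and the F-test inside stages gave an adjusted p of 0.00082. Its change of -0.81 ± 0.41 was 1.41 with scan day fixed. Cygb and Cnnm1 ran alike (week 3 means of 9.20 and 8.14 against 7.68 and 6.26 at week 2).

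**Figure D4:**
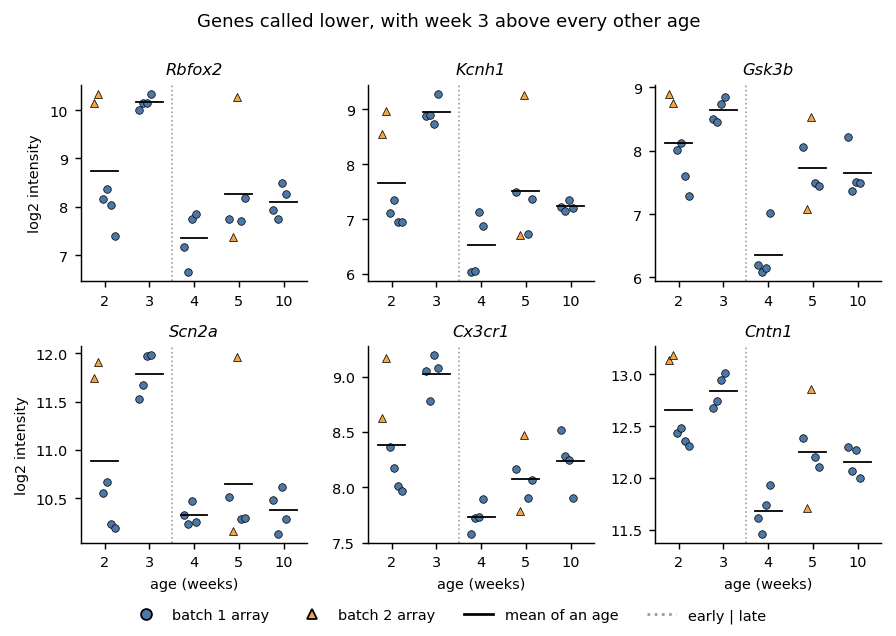
Log2 intensity (y axis) of 6 genes called lower in late arrays on each of the 23 arrays against age in weeks (x axis), with symbols and bars as in the plot of separated genes. All of week 3, both batch 2 animals of week 2 and a single week 5 animal stand above the rest for Rbfox2, Kcnh1, Gsk3b, Scn2a and Cntn1, and nearly so for Cx3cr1.

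Changes were also read within each batch, since batch 2 held week 2 and week 5 alone. Of the probe sets called higher, 1729 of 1766 had the same sign in both batches, and of those called lower 1871 of 1919. The calls rest on the same arrays, which favours equal signs, and 7219 of the 12418 not called (58.1%) had equal signs. A direct test of the difference between batches called 41 probe sets (0.255%), 30 of them with the larger value in batch 2, where the 2 early arrays are both of week 2 and 2 arrays stand for each stage. Igfbp6 changed by 1.36 within batch 1 and 3.57 within batch 2, Foxo3, a transcription factor under insulin control, by 0.12 and 1.12, and Tnc, a matrix glycoprotein of development, by -0.11 and -0.999. Mt1, a metal-binding protein, changed by -0.07 and 1.09. With week 2 animal 5, whose title and description disagree on the batch, moved to batch 2, no probe set was called by this test, and 5, 8 and 18 were called without week 5 animal 2, week 2 animal 1 and week 5 animal 4 of batch 2 in turn. Within scan day 4, which held 1 early and 1 late array, 1701 of the called higher and 1671 of the called lower probe sets kept their sign, and within scan day 7, with 2 and 1, 1646 and 1631 did. Of the 12418 not called, 8413 and 7864 did, and the arrays of both days also entered the calls.

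The properties of genes at hand were set side by side without a test. The median genomic span was 22.3 kb for genes that rose, 28.2 kb for those that fell and 22.2 kb for those not called, and 2.91%, 2.85% and 3.08% of them lay on the X chromosome. The median log2 level was 8.58, 8.33 and 7.55. Among the 63 separated risers 27 rose at each of the 4 steps between ages, and among the 26 separated fallers 14 fell at each.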

How the data were processed

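RNA of 23 mouse prefrontal cortices was measured on Affymetrix MOE430A arrays, 1 array per animal as titled. The labels do not say how animals were drawn from litters, and the number of arrays limits the precision. The p-values between stages measure a spread between arrays that also holds differences between pooled ages and between scan days. The fitted correlation of arrays of the same scan day was 0.36 in place of batch and 0.35 beside batch, so the arrays were not independent. The deposited values are log2 intensities, made by the authors with GCRMA per the submitters' processing notes; the version is not given in the sources used here, and they were not renormalised. Of 22690 probe sets, 64 controls were left out and those with a log2 value of at least 4 on at least 4 arrays were tested (16103, 71.0%). Platform annotation gave 20380 probe sets 1 gene symbol, 691 several and 1619 none, and 20351 were matched by Entrez identifier to RefSeq. The level of each probe set was fitted with stage and titled batch as terms in limma 3.58.1 (R 4.3.3), with Benjamini-Hochberg adjustment over all probe sets and a threshold of 0.05. Array measures were compared by two-sided permutation tests with scipy 1.17.1 (Python 3.11.15). The fit was tested on simulated data. A gene was represented by its brightest probe set. Named were the 15 largest separated rises and falls, the 6 most abrupt of each, up to 4 called members of each list with the largest changes (where none was called, the 2 brightest), the 6 largest spreads inside a stage, and 5 stage-by-batch genes. Other list members are examples chosen after their values were seen. The members and lists were chosen with earlier results of these data known. Alternatives changed batch, scan day, filter, scaling, weights and the arrays included; the settings without weeks 3 and 4, without week 4 and scan day 1, and without scan days 6 and 7 were chosen after seeing the data.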

Additional observations from a re-analysis of the deposited data

Results flagged for a closer look

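For 24 of 9198 genes the change differed between the 2 batches by a test of the difference itself in limma, taken as batch 2 minus batch 1. The 5 with the smallest adjusted p are given here. The difference was 2.21 for Igfbp6 (1.36 within batch 1 and 3.57 within batch 2, adjusted p = 0.00342), 1.16 for Mt1 (-0.07 and 1.09, adjusted p = 0.00342) and 1.00 for Foxo3 (0.12 and 1.12, adjusted p = 0.00859). It was -1.21 for Usp43, a ubiquitin protease (adjusted p = 0.00345), and -0.89 for Tnc (adjusted p = 0.0149). Batch 2 held 2 week 2 and 2 week 5 arrays.

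The array of week 2 batch 2 animal 1 stood far below the other early arrays for 2 genes. Nptx1 was at 9.71 there and between 10.35 and 10.83 on the others, and Lpgat1 was at 9.55 there and between 9.96 and 10.38 on the others. Chance sets off this check in about 1 in 20 groups, and 40 were made.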

How the results depend on the processing

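The count of called probe sets, 3685, became 2407 where a random scan day replaced batch, 2386 where it was added to batch, 1587 where scan day was held fixed, 2261 without week 5, 2172 without scan days 6 and 7, and 0 in batch 2 alone, where 2982 had an unadjusted p under 0.05 in limma. Leaving out each array in turn gave 3089 to 3762. The animal numbers of the titles did not pair the arrays (25 same-numbered pairs, median correlation -0.04, 2 of 23 arrays closest to their own number), and with the animal number as a replicate block 2052 were called. The 2077 probe sets with a spread inside a stage were 1270 without the batch term and 1340 (without week 3 animal 5; 1357 without animal 3) to 2612 leaving out each array. The 41 differing between batches were 0 with week 2 animal 5 in batch 2 and 5 to 56 leaving out each array (5, 8 and 18 without week 5 animal 2, week 2 animal 1 and week 5 animal 4 of batch 2). The actin difference then lay between 0.376 and 0.470, the array median difference between -0.0541 and -0.0459, and the Gapdh difference between -0.0301 and 0.0335, at -0.0076 in another case below 0. With scan day fixed the sign turned for Kcnc1 (1.41), Nos1 (0.0816), Pde10a (0.0226), Homer1 (0.0487), Scn2a (0.12), Kcnh1 (0.40), Kcnma1 (0.16), Smarcc1 (0.0883), Satb1 (0.0272) and Rbfox2 (0.39), in batch 2 alone for Ugt8a (0.0727) and Tmem119 (0.16), and without week 2 for Cdk4 (0.0075). The fixed scan day setting rests on scan days 4 and 7, without week 3 or 4 arrays, and the cause of these turns was not tested. Of 176 named called genes, 62 lost their call and 9 turned with scan day fixed, 60 lost it without scan days 6 and 7, and 75 lost it and 1 turned without week 2. Low signal limits probe sets near background.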

Other observations

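Beyond the groups described, several lists held few called members. Of 20 immediate early genes 1 rose and none fell, of 16 receptors of monoamines, acetylcholine and peptides 2 fell, and of 10 neurofilament and axon cytoskeleton genes 1 fell. Htr2c, a serotonin receptor, changed by -0.83, and Bdnf, the neurotrophin, was at 0.08 and did not pass. Proteasome genes rose in 3 and fell in 4 of 32 cases and splicing genes in 3 and 4 of 45.

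Differences between age means inside a stage stood out for some genes not called between the stages. Prmt1, an arginine methyltransferase, had age means of 9.27, 7.29, 9.79, 8.46 and 9.52, lowest at week 3, and its change was 0.68. All week 3 arrays were scanned on day 6. The lowest array was week 5 batch 2 animal 4, of scan day 7, and week 2 batch 2 animal 2, of that day, was also low. Week 2 batch 2 animal 1, of the same day, was not low, whereas week 5 batch 1 animal 2, of scan day 1, was. The part of scan day in the Prmt1 age means was not tested. Of 12418 probe sets not called between the stages 1300 differed between ages inside a stage by the F-test, which had no term for scan day.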
